A study of Mus musculus with 17 samples.

Results

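Chromatin accessibility was examined at interferon response and Trim genes in 3 stages of the mouse B lineage: naive cells (nB), germinal center cells (GCB) and plasma cells of the bone marrow (BMPC). They came from mice with functional Dnmt3a and Dnmt3b (C) or with both deleted in B cells (KO). Members were regions whose nearest transcription start site (TSS) belonged to a gene named Irf1, 2, 3, 5, 6, 7 or 9, Ifi, Ifit, Ifitm, Isg, Oas, Oasl, Gbp, Mx1, Mx2, Usp18 or Trim with a number, at a distance of at most 50000 bp. The rule found 353 of 66177 regions, assigned to 107 gene symbols. Of these, 21 regions of 7 Trim genes lie in one cluster on chromosome 7 (mm9, chr7:111367025-111656858) and are described apart, because 4 of the libraries stood apart there. The other 332 regions comprised 45 at IRF genes, 88 at antiviral effector genes, 16 at the Ifi200 family, 31 at guanylate binding protein genes and 152 at other Trim genes. A region within 1000 bp of a TSS was counted as proximal (106 members) and the other 247 as distal. Another 22 regions matched by name but lay beyond the distance limit and were left out, and 69 members overlap a gene other than the one they were assigned to, so the gene name marks a position and not a proven target.

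ATAC-seq, which marks open chromatin by the cuts of a transposase, was available for 16 libraries, each from a small number of sorted cells. Both C and KO mice carry Dnmt3afl/fl and Dnmt3bfl/fl on a B6;129S4 background, and only KO mice carry Cre, on 1 allele and active throughout the B lineage. The nB were B220+ GL7- Fas- lymph node cells from 1 unimmunized male each (3 C and 2 KO libraries). The GCB were phycoerythrin (PE)-specific B220+ GL7+ Fas+ lymph node cells from pools of 2 mice (2 C libraries, F2 and M1, and 4 KO libraries, F1, F2, F3 and M1), and the BMPC were CD138+ bone marrow cells from 1 female each (3 C and 2 KO libraries), both taken 30 days after immunization with PE in complete Freund's adjuvant. Mice entered the study at 8 to 12 weeks of age. The GCB pools were female (F) or male (M), 1 of each in C, and 3 female and 1 male in KO. Sex, tissue and immunization therefore differ between the cell types and cannot be told apart from cell type.

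Type I and type II interferons act through JAK-STAT signaling. Irf9 takes part in the complex that binds the interferon-stimulated response element (ISRE), and the other IRF proteins recognize the same GAAA repeats. The induced genes encode products that restrict viruses or sense foreign nucleic acid, such as the Mx GTPases, the Ifit RNA-binding proteins, the Ifitm membrane proteins that hinder viral entry and the Oas enzymes that activate RNase L. The Trim proteins are a large family of mostly RING-domain ubiquitin ligases, only some of which are interferon-induced. Plasma cell differentiation is driven by an IRF protein outside this gene set, Irf4.

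The ISRE sequence was therefore read from the mm9 assembly. A core was taken as GAAA, any 2 bases, GAAA on either strand, and regions were counted by whether their central 300 bases hold it. Each sequence here is 40 bases from a proximal region, 5′ to 3′ on the strand given, with the core in capitals. The first 9 are shown because they come from genes whose values are given in what follows, and the last 5 because they belong to the Trim cluster on chromosome 7. The cores printed for Usp18, Mx2, Oasl2, Gbp2 and Trim12c lie in their region but outside its central 300 bases, and these regions are not among those counted.
Isg15 (chr4:155574975-155575014, - strand): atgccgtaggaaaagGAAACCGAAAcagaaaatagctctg
Usp18 (chr6:121195826-121195865, - strand): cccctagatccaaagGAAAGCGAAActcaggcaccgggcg
Ifit3 (chr19:34657848-34657887, - strand): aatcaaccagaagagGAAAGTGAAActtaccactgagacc
Mx2 (chr16:97756736-97756775, + strand): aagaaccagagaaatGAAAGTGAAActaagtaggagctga
Oasl2 (chr5:115347463-115347502, - strand): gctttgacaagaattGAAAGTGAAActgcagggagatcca
Ifitm3 (chr7:148196600-148196639, - strand): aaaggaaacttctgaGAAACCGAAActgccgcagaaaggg
Gbp2 (chr3:142283553-142283592, - strand): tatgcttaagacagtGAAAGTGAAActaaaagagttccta
Irf7 (chr7:148451719-148451758, - strand): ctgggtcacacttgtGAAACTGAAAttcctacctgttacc
Trim21 (chr7:109713953-109713992, - strand): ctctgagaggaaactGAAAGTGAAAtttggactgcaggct
Trim34a (chr7:111392966-111393005, - strand): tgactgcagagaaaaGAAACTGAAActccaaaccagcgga
Trim12a (chr7:111463975-111464014, + strand): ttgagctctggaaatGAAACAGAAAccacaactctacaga
Trim12c (chr7:111501868-111501907, + strand): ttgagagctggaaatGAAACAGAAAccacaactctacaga
Trim30a (chr7:111613719-111613758, + strand): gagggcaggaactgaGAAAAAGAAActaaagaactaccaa
Trim30d (chr7:111656380-111656419, + strand): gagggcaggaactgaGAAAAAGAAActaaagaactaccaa
The core was present in the central 300 bases of 14 of 28 proximal antiviral effector regions (50%) and 3 of 4 proximal Ifi200 regions (75%). Among all 14972 proximal regions on assembled chromosomes 3.65% held it. It was found in 4 of 11 proximal regions of the chromosome 7 cluster, 2 of 11 at Gbp genes, 1 of 7 at IRF genes and 3 of 45 at other Trim genes. In whole regions, which differ in length, it was found in 18 of 28 proximal antiviral effector regions (64.3%), 5 of 11 of the cluster and 10.3% of all proximal regions. Distal members did not stand out, with 15 of 247 (6.07%) against 8.20% of all distal regions. Over all members the share was 11.9%, against 7.16% of all regions. A GAS core (TTC, any 3 bases, GAA), the element of the type II interferon response, was counted in the same way and was in 13.3% of members and 8.98% of all regions. Such matches describe letters in a window and not bound sites. Some counted regions belong to gene copies, so the counts are not independent. The same 40 bases surround a core in 2 Ifi204 regions, and likewise in Ifit3 and Ifit3b.

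**Figure D1:**
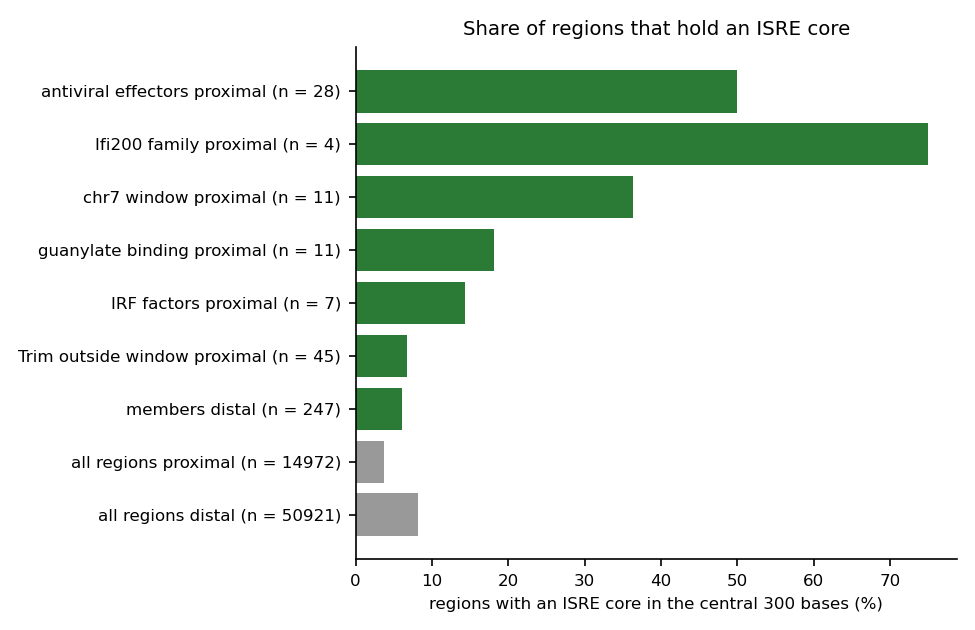
Share of regions (%, horizontal axis) with an ISRE core in their central 300 bases, for proximal members by gene group, for distal members, and in gray for all proximal and all distal regions. The antiviral effector bar reaches 50% and the gray bar of all proximal regions 3.65%; the Ifi200 bar rests on 4 regions.

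Accessibility is given in RPPM, the reads of a region per 1000000 reads in all regions of that library. Reads in regions numbered 4104875 to 6079018 in nB, 907959 to 2280954 in GCB and 5357687 to 8232313 in BMPC, so the floor used here, 3 reads, equals 0.364 to 3.30 RPPM and GCB values are the least precise. Mitochondrial regions held 2.57% to 10.1% of these reads, most in GCB. Sorted cell identity was checked at marker genes. All 5 B cell markers fell in C BMPC against C nB (Pax5 by 3.44 on the log2 scale). Of 4 plasma cell markers with a region, 1 was called in this comparison, Tnfrsf17, which was higher by 3.93 in C BMPC. The others were not called and did not all go the same way. At the germinal center marker Bcl6 the region was lower in C GCB than in C nB, with a log2 difference of -1.38. Of the other germinal center markers, S1pr2 had a mean of 14.4 RPPM in C nB, 26.2 in C GCB and 39.3 in C BMPC. For Mef2b these means were 12.2, 21.5 and 19.2. Neither was called in C GCB against C nB, and S1pr2 was called as higher in C BMPC than in C nB (log2 difference 1.40). None of 6 T cell genes had a region. Of 8 myeloid genes 2 had one (Itgam and Cd14), and their sum was 7.69 to 16.7 RPPM in GCB, 11.5 to 15.6 in nB and 17.7 to 22.9 in BMPC, and its part in the results was not tested. The regions nearest the starts of Dnmt3a and Dnmt3b, which need not cover the deleted exons and so do not check the genotype, ranged from 10.5 to 28 and from 19.6 to 45.7 RPPM over the libraries and were not called in any genotype comparison.

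The promoters of well-known interferon genes differed widely in level. Of 34 genes chosen for this purpose, 29 had an assigned region within 1000 bp of the TSS, and 21 of these were not called in any comparison of cell types in C. Per kilobase of region, the mean over the 16 libraries ran from 8.20 RPPM at Oas1a to 56.3 at Trim24. Near the top of this order stood Trim33 (55.9), Irf9 (55.2), Irf7 (54.6) and Trim28 (50.6), which encodes a corepressor of retroelements. Trim21, the cytosolic antibody receptor, followed with 47.8 RPPM per kb, and Trim25, a ligase that acts on the RNA sensor RIG-I, with 40.1. Isg15, the ubiquitin-like modifier, and Usp18, the protease that removes it, lay in the middle with 27.6 and 27 RPPM per kb, and Mx1, Ifitm3, Oasl2 and Oas1a came last with 14.6, 13.2, 12.4 and 8.2. Irf3 and Ifi44 had no member region, and Ifit1, Oasl1 and Irf2 had none assigned within 1000 bp of the TSS. By GENCODE, however, the Ifit1 start lies in a region assigned to Ifit1bl2 (chr19:34714954-34715617), that of Irf2 in a region assigned to no gene name (chr8:47824574-47825637), which is no member, and that of Irf3 near one assigned to Bcl2l12. The region over the Ifit1 start held 17.8, 15.4 and 14.7 RPPM in C nB, 10.6 and 5.62 in C GCB and 15.5, 13.9 and 13.4 in C BMPC and was not called.

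Differences between cell types were tested with limma on log2(RPPM + 1), with calls made where the adjusted p did not exceed 0.01 and the change reached 2 fold. Distances from a TSS are negative upstream. In bulk cells, a larger share of cells with open chromatin and more opening per cell cannot be told apart. From C nB to C GCB, 23 of the 332 members outside the chromosome 7 cluster rose and 32 fell (6.93% and 9.64%), against 14.2% and 8.47% of all regions. From C nB to C BMPC, 57 rose and 68 fell (17.2% and 20.5%), against 18.0% and 20.1%. Between C GCB and C BMPC, 44 were higher and 48 lower in BMPC (13.3% and 14.5%), against 11.3% and 19.1%. The median log2 fold change of the members was -0.13, 0.04 and 0.03 in these comparisons, and that of all regions 0.05, 0.03 and -0.06. The share that rose in GCB and the share that fell from GCB to BMPC were smaller than among all regions, and the others lay near theirs. In KO mice, 39 of the 55 regions called in C GCB against nB were also called in the same direction (70.9%), as were 98 of 125 in BMPC against nB (78.4%) and 70 of 92 in BMPC against GCB (76.1%). Over all regions these shares were 76.9%, 79.9% and 77.7%, and no member was called in opposite directions.

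**Figure D2:**
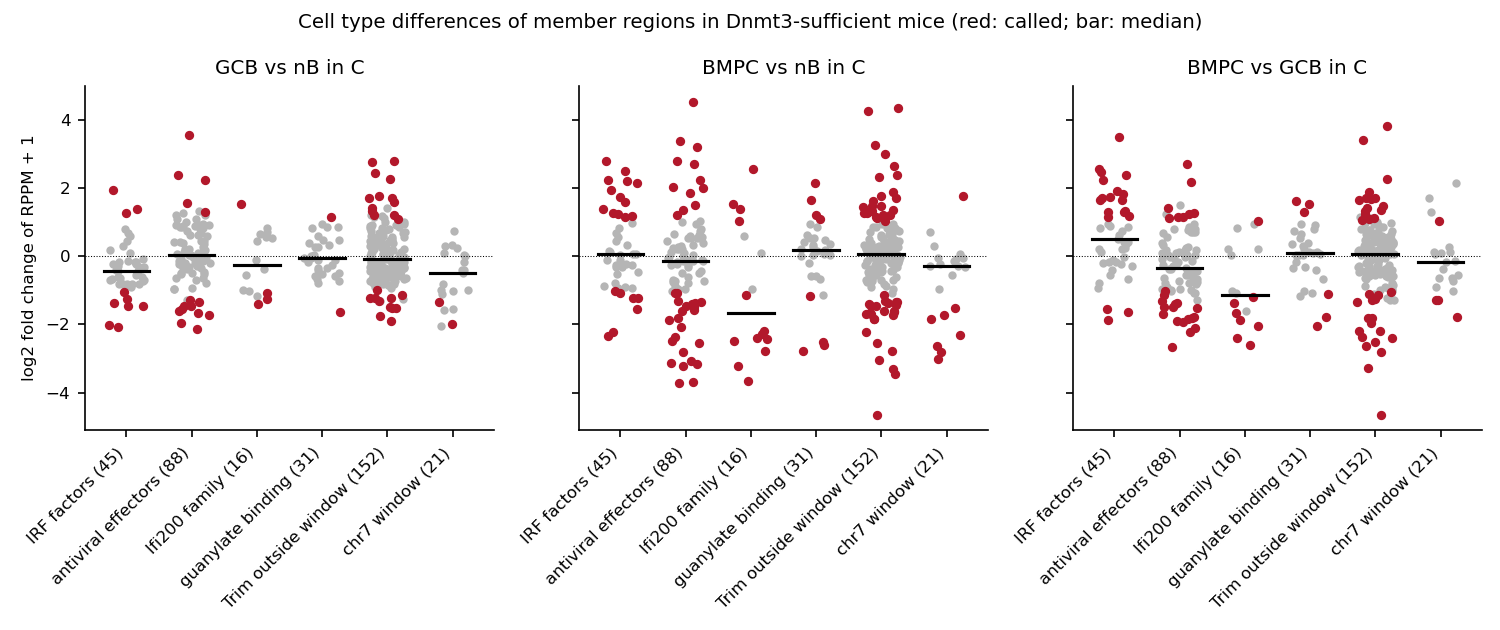
Log2 fold change of RPPM + 1 (vertical axis) of each member region in the 3 comparisons of cell types in C, by gene group with its number of regions in parentheses; red points were called, gray points were not, and black bars are medians. In BMPC against nB the Ifi200 group has its median at -1.67 and the other groups between -0.29 and 0.16.

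The IRF genes are the transcription factors of the pathway, and 20 of their 45 regions were called in C BMPC against C nB, 13 higher and 7 lower (28.9% and 15.6%, against 18.0% and 20.1% of all regions). The Irf7 promoter, at the gene that amplifies type I interferon production, was more open in GCB and BMPC than in nB. Its region (chr7:148450643-148452684, over an exon of Irf7) held 58.5, 50.9 and 65.1 RPPM in C nB, 133 and 149 in C GCB and 133, 137 and 143 in C BMPC. In KO mice it held 60.4 and 64.7 RPPM in nB, 112.3, 119, 139 and 144 in GCB and 134 and 140 in BMPC. The nB libraries lay below all others without overlap, and the log2 fold change in C was 1.27 ± 0.11 (SE) in GCB and 1.24 ± 0.10 in BMPC (limma adjusted p = 4.5e-10 and 1.9e-11). The difference between C BMPC and C GCB at this promoter was -0.03 ± 0.11 on this scale and was not called.

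Irf1, an activator, and Irf2, its antagonist, changed at several regions, while for each gene the nearest region assigned to it was not called. The Irf1 promoter (chr11:53583004-53584291) held 70.5 to 76.7 RPPM in C nB, 38.3 and 45.4 in C GCB and 76.1 to 78.3 in C BMPC. All GCB libraries lay below all others, but the log2 fold change from nB of -0.82 ± 0.13 did not reach 2 fold. A region upstream of Irf1 (-5717 bp from its start) fell from 66.1 to 81.9 RPPM in C nB to 35.2 and 35.1 in C GCB (log2 fold change -1.06 ± 0.14). A region 15038 bp downstream of the Irf1 start, over an exon of Gm12216, fell further in GCB, from 13.9, 19 and 16.9 RPPM to 2.64 and 4.22, with 10.3, 13.7 and 17.4 in C BMPC. At Irf2 there were 22 regions, of which 8 were higher and 4 lower in C BMPC than in C nB, against 18.0% and 20.1% of all regions. In C BMPC against C GCB 11 of the 22 were higher, against 11.3% of all regions. The region with the largest rise lay in an Irf2 intron (chr8:47904374-47905316), with 3.41, 3.77 and 3.35 RPPM in C nB, 2.2 and 1.41 in C GCB and 29.1, 32.1 and 29 in C BMPC. KO BMPC held 30.5 and 28.6 RPPM there, and the BMPC libraries did not overlap those of the other cell types. Its log2 fold change in C BMPC was 2.78 ± 0.29 against nB and 3.48 ± 0.32 against GCB (limma adjusted p = 3.5e-09 and 8.7e-10). Another Irf2 intron, 25178 bp from a TSS, went from 8.77, 9.8 and 8.0 RPPM in C nB to 1.76 and 0.937 in C GCB, a log2 fold change of -2.09 ± 0.31.

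Among the 88 antiviral effector regions, 12 were higher and 23 lower in C BMPC than in C nB. These shares were 13.6% and 26.1%, against 18.0% and 20.1% of all regions. In C GCB against C nB, 5 were higher and 10 lower (5.68% and 11.4%, against 14.2% and 8.47%). Several regions between the Ifitm genes rose, and several promoters of Ifit genes fell. The Ifitm cluster lies on chromosome 7, away from the Trim cluster of that chromosome. A region between Ifitm1 and Ifitm3 (chr7:148172980-148173997, 19004 bp from the Ifitm1 start, in no annotated gene) held 1.22, 1.7 and 1.3 RPPM in C nB, 11.4 and 11.2 in C GCB and 51.9, 56.9 and 54 in C BMPC. KO libraries held 2.47 and 1.77 in nB, 9.91, 15.9, 14 and 5.59 in GCB and 52.7 and 49.6 in BMPC. The order nB, GCB, BMPC held without overlap in both genotypes, and the log2 fold change in C from nB was 2.36 ± 0.27 in GCB and 4.53 ± 0.25 in BMPC (limma adjusted p = 9.2e-08 and 1.1e-14). Its central 240 bases are shown because it had the largest rise of all members from C nB to C BMPC, and they hold neither an ISRE nor a GAS core, although an ISRE core lies in the same region past their end (chr7:148173777-148173786).
Ifitm1 distal region (chr7:148173368-148173607, + strand): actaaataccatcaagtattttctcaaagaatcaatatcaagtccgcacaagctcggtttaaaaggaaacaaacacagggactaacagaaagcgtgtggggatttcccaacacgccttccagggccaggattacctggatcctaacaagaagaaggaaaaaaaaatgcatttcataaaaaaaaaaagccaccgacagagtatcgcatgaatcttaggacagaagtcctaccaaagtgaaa
Another region in the same gap (chr7:148186709-148187405) held 0.731, 0.377 and 2.61 RPPM in C nB, 27.7 and 19.2 in C GCB and 18.2, 19.5 and 15.6 in C BMPC. It rose by 3.56 ± 0.29 and 3.19 ± 0.26 on the log2 scale, so here GCB were not between the other cell types. A region 10908 bp from the Ifitm3 start rose in steps, from 8.77, 7.72 and 9.68 RPPM in C nB to 26.8 and 28.6 in C GCB and 55.4, 68.4 and 63.2 in C BMPC. The Ifitm3 promoter, which holds the ISRE core printed for this gene, was not called, with 5.85, 2.83 and 4.47 RPPM in C nB, 5.28 and 6.09 in C GCB and 6.63, 7.12 and 6.07 in C BMPC. On chromosome 16, an intronic region of 2900011O08Rik assigned to Ifitm7 rose from 0.487, 0.754 and 0.372 RPPM in C nB to 6.16 and 6.09 in C GCB and 14.7, 15.9 and 13.7 in C BMPC. A region 1623 bp from the Ifitm2 start went the other way, from 16.3 and 12.6 RPPM in C GCB to 1.95, 0.73 and 1.87 in C BMPC. The region near Ifitm5, over an exon of Athl1, held 4.87, 3.96 and 4.47 RPPM in C nB and 0 and 0.937 in C GCB, a fall that was no longer called without C GCB F2.

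The Ifit genes of chromosome 19 encode proteins that bind foreign RNA, and several of their promoters were lower in plasma cells. The Ifit3 promoter (chr19:34657175-34658301) held 31.4, 23.4 and 21.6 RPPM in C nB, 25.5 and 21.5 in C GCB and 12.4, 8.03 and 6.85 in C BMPC, and 14.7 and 11.9 in KO BMPC. All BMPC libraries lay below all others, and the log2 fold change in C BMPC against nB was -1.41 ± 0.19 (limma adjusted p = 5.0e-07). The Ifit2 promoter fell from 37.5 ± 3.6 (SD, n = 3) to 12.7 ± 2.0 (SD, n = 3) RPPM. The steepest falls of this group were at promoter regions assigned to Ifit1bl1 (Gm14446 in GENCODE), of which one held 30.7, 24.3 and 21.6 RPPM in C nB, 6.6 and 8.9 in C GCB and 1.43, 0.912 and 0.779 in C BMPC. Ifit genes are related copies, and how reads were shared among them was not tested. At the Mx2 promoter the log2 fold change in C BMPC against nB was -1.09 ± 0.20, while the Mx1 promoter was not called in any comparison of cell types. Isg15 and Isg20, the latter the gene of an RNA exonuclease, were higher in C BMPC than in C GCB, by 1.12 ± 0.26 and 1.27 ± 0.16. Of the 29 promoters of listed genes, 2 rose in C GCB against C nB (Irf7 and Ifi204) and 0 fell. Among all proximal regions 9.07% rose and 6.90% fell in this comparison. In C BMPC against C nB the same 2 rose and 4 fell (Ifit2, Ifit3, Mx2 and Oas1a), while 11.2% of all proximal regions rose and 6.22% fell.

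The Ifi200 genes of chromosome 1 encode sensors of DNA and related nuclear proteins, and 13 of their 16 regions were called in C BMPC against C nB, 4 higher and 9 lower (25% and 56.2%, against 18.0% and 20.1% of all regions). The median log2 fold change of the 16 was -1.67, and that of all regions 0.03. All 6 regions of Ifi202b fell, the largest change being at chr1:175934605-175935261, where C nB held 25.8, 28.8 and 26.1 RPPM, C GCB 11 and 13.6 and C BMPC 1.82, 0.912 and 0.934. Its log2 fold change was -1.08 ± 0.28 in GCB and -3.67 ± 0.25 in BMPC. A promoter assigned to Ifi204 (chr1:175842656-175843767, over an exon of Mnda in GENCODE) rose instead, from 6.33, 4.52 and 5.58 RPPM in C nB to 18.5 and 16.9 in C GCB and 37.7, 39.4 and 34.1 in C BMPC. The Ifi203 promoter held 31.7 to 39.1 RPPM over the C libraries and was not called. These genes are close copies, and reads may be split among them. The Gbp genes encode GTPases that act on vacuoles with pathogens, and 4 of their 31 regions were higher and 4 lower in C BMPC than in C nB (12.9% each, against the same 18.0% and 20.1%). The Gbp2 promoter held 28.8 ± 1.3 RPPM in C nB, 36.6 ± 1.9 in C GCB and 37.2 ± 2.4 in C BMPC (mean ± SD) and was not called. A region upstream of it (-1292 bp) fell from 30.5, 26.8 and 24.9 RPPM in C nB to 3.64, 4.74 and 3.58 in C BMPC, and one upstream of Gbp8 (-8420 bp) rose from 2.68, 3.2 and 5.02 to 17.3, 19.7 and 20.2.

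**Figure D3:**
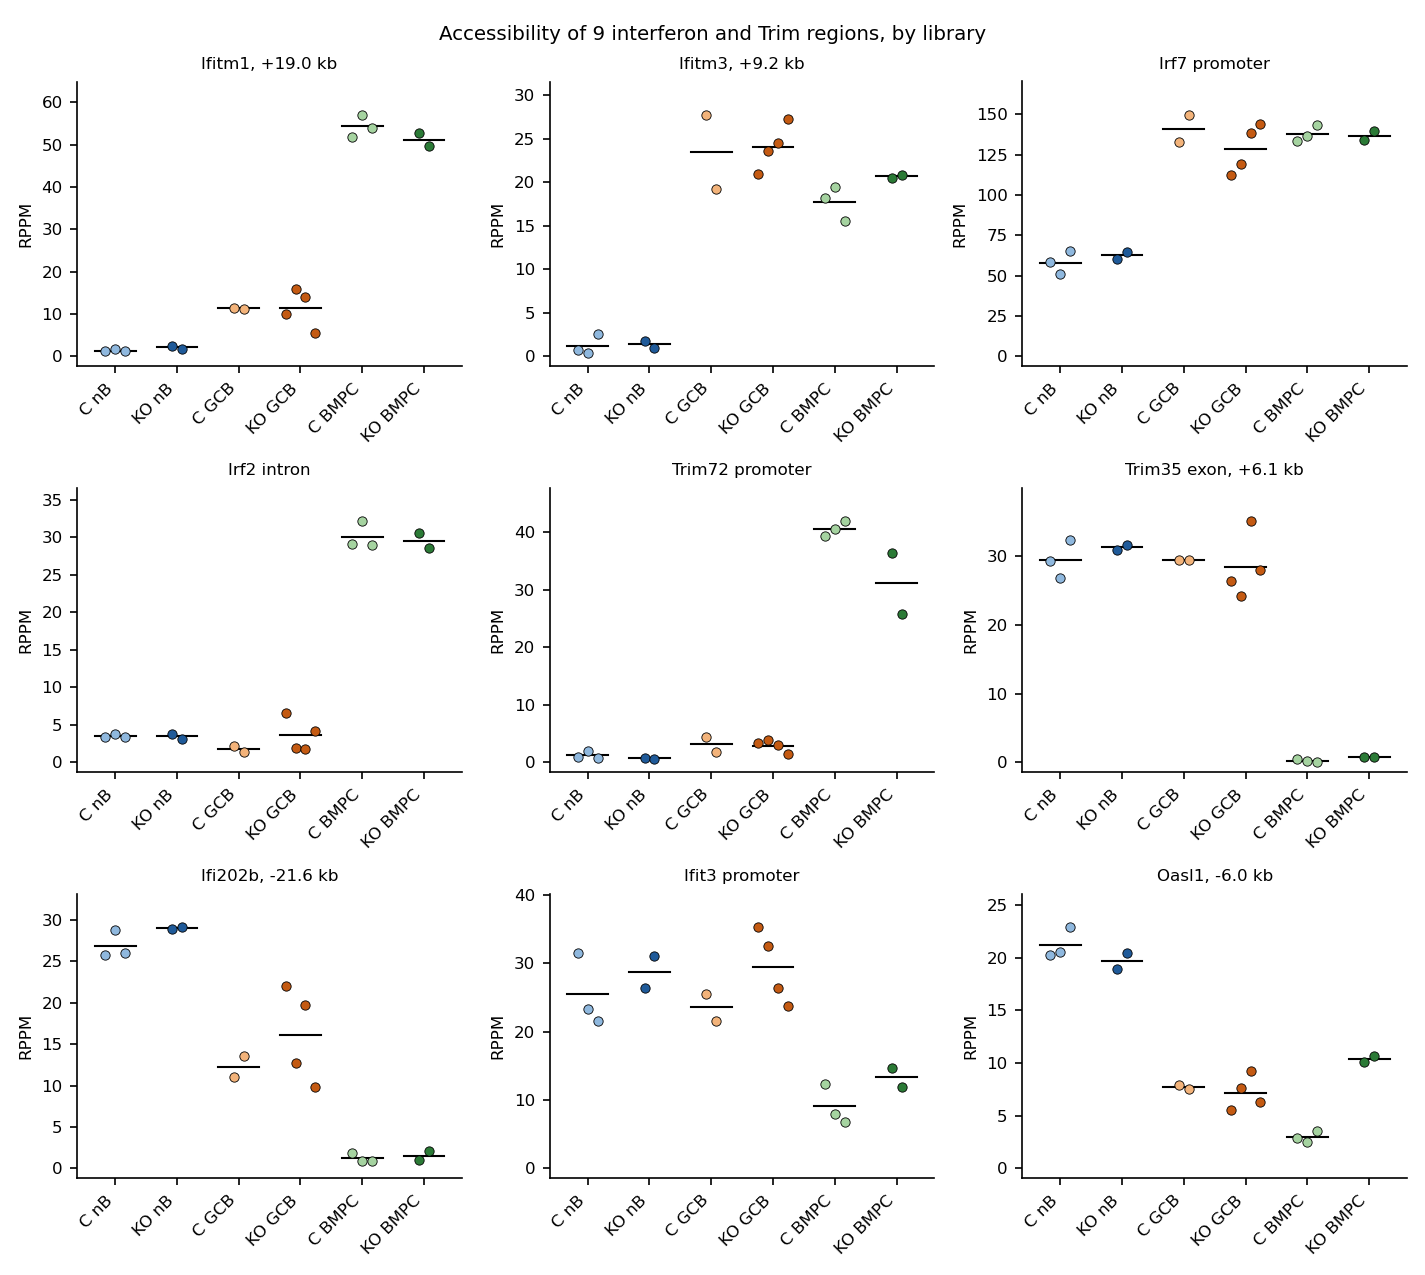
RPPM (vertical axis) of 9 member regions in each of the 16 libraries, 1 point per library, with the group mean as a bar. At Ifitm1 the BMPC points sit between 49.6 and 56.9, at Trim35 between 0 and 0.747, and at Oasl1 the KO BMPC points (10.1 and 10.6) lie above the C BMPC points (2.55 to 3.58).

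Trim genes outside the cluster had 24 regions higher and 25 lower among 152 in C BMPC against C nB (15.8% and 16.4%, against 18.0% and 20.1% of all regions). In C GCB against C nB 13 were higher and 11 lower (8.55% and 7.24%, against 14.2% and 8.47%). The largest fall of any member was at Trim35, the gene of a ubiquitin ligase. Its region over an exon (chr14:66922025-66922602) held 29.2, 26.8 and 32.4 RPPM in C nB and 29.5 and 29.5 in C GCB, but 0.52, 0.182 and 0 in C BMPC. KO libraries held 30.9 and 31.7 in nB, 26.4, 24.2, 35.1 and 28 in GCB and 0.729 and 0.747 in BMPC, so BMPC lay apart from the rest in both genotypes. The log2 fold change in C BMPC was -4.64 ± 0.20 against nB (limma adjusted p = 1.5e-16), and that in GCB was 0.01 ± 0.22. The central 240 bases, shown for this contrast, also hold no ISRE or GAS core.
Trim35 exon region (chr14:66922193-66922432, + strand): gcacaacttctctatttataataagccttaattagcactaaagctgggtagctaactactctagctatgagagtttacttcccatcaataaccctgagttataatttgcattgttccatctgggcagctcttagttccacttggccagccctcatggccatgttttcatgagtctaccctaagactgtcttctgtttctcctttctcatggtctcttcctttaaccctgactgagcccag
Another Trim35 region and an intronic region of Trim36 fell by 3.44 and 3.30 on this scale in C BMPC, and a region upstream of Trim59 (-17849 bp) fell by 3.04. The largest rises were at Trim80 and Trim72, the latter a gene of membrane repair in muscle. The Trim72 promoter (chr7:135147641-135148817) went from 0.974, 2.07 and 0.744 RPPM in C nB and 4.4 and 1.87 in C GCB to 39.3, 40.5 and 41.9 in C BMPC, with 36.4 and 25.8 in KO BMPC. An intronic region of Trim80 (4933422H20Rik in GENCODE) held 0.487, 0 and 0.372 RPPM in C nB and 21.2, 27 and 26.9 in C BMPC. Both genes were thus near the floor in nB and open in plasma cells.

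A few Trim regions were open mainly in GCB. The region at the start of Trim9, a gene best known from neurons, held 9.68 and 13.1 RPPM in C GCB and 11, 9.55, 10.1 and 9.09 in KO GCB, against 0.731, 1.13 and 0.558 in C nB and 4.42, 1.46 and 1.4 in C BMPC. Regions near Trim43c and Trim62 had no read in the 3 C nB libraries and were at least 10.1-fold and at least 7.28-fold higher in C GCB, with 3 reads per library as the floor. Trim16 and Trim37 regions fell from C nB to C GCB, from 8.77, 8.29 and 10.0 to 2.64 and 0.937 RPPM and from 14.6, 12.4 and 12.8 to 4.4 and 2.34. At Trim16 the call was lost without C GCB M1.

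Other genes of the pathway, listed apart from the rule, were examined at their promoters. Of 10 receptor and signaling genes none was called against C nB in either cell type by limma, and Jak2 was higher in C BMPC than in C GCB (log2 fold change 1.23). Of 10 sensor genes Ddx58, which encodes RIG-I, was higher in the same comparison (1.70). Of 21 induced genes with a region, 3 fell in C GCB against nB (Bst2, Ddx60 and Irgm1), and in C BMPC 1 rose (Lgals3bp, 1.49) and 2 fell (Ddx60, -2.73, and Rtp4, -2.50). Between C GCB and C BMPC, 5 of the induced genes were higher and 3 lower in BMPC. Among all proximal regions, 9.07% were higher and 6.90% lower in C GCB than in C nB, and 11.2% and 6.22% in C BMPC than in C nB. In C BMPC against C GCB these shares were 11.2% and 7.15%, with a median log2 fold change of 0.28. None of the 41 promoters of the 3 lists was called between the genotypes by limma, and their largest log2 differences were 0.33 in nB, 0.64 in GCB and 0.42 in BMPC in size.

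Dnmt3 deficiency left almost all members outside the chromosome 7 cluster without a called change. A region that was not called may still differ. In simulated reads, limma called 43% of regions changed by 2 on the log2 scale in nB, 55.5% in GCB and 45.5% in BMPC. Such changes lie well above the 2 fold limit, so these shares do not hold for changes near it. In nB and in GCB limma called 0 of 332 members, as it called 0% of all regions in nB in either direction and 0.0317% higher and 0% lower in GCB. At an unadjusted p under 0.05 there was 1 member in nB and 39 in GCB (all regions 1.67% and 11.8%), and edgeR's quasi-likelihood and likelihood ratio tests and DESeq2 also called 0 in both. In BMPC limma called 1 of 332 members, higher in KO, against 0.0907% of all regions higher and 0.0136% lower, and 37 had an unadjusted p under 0.05 (all regions 9.55%). In the mean over the 3 cell types it called 0 (all regions 0.0317% higher and 0% lower), with 28 at an unadjusted p under 0.05 (all regions 8.71%), and the other tools also called 0. The median log2 difference of the 332 members was -0.03 in nB, 0.03 in GCB and 0.07 in BMPC, and that of all regions -0.01, 0.03 and 0.03. The 29 listed promoters differed by at most 0.82, 1.17 and 0.88 in size, and none was called.

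**Figure D4:**
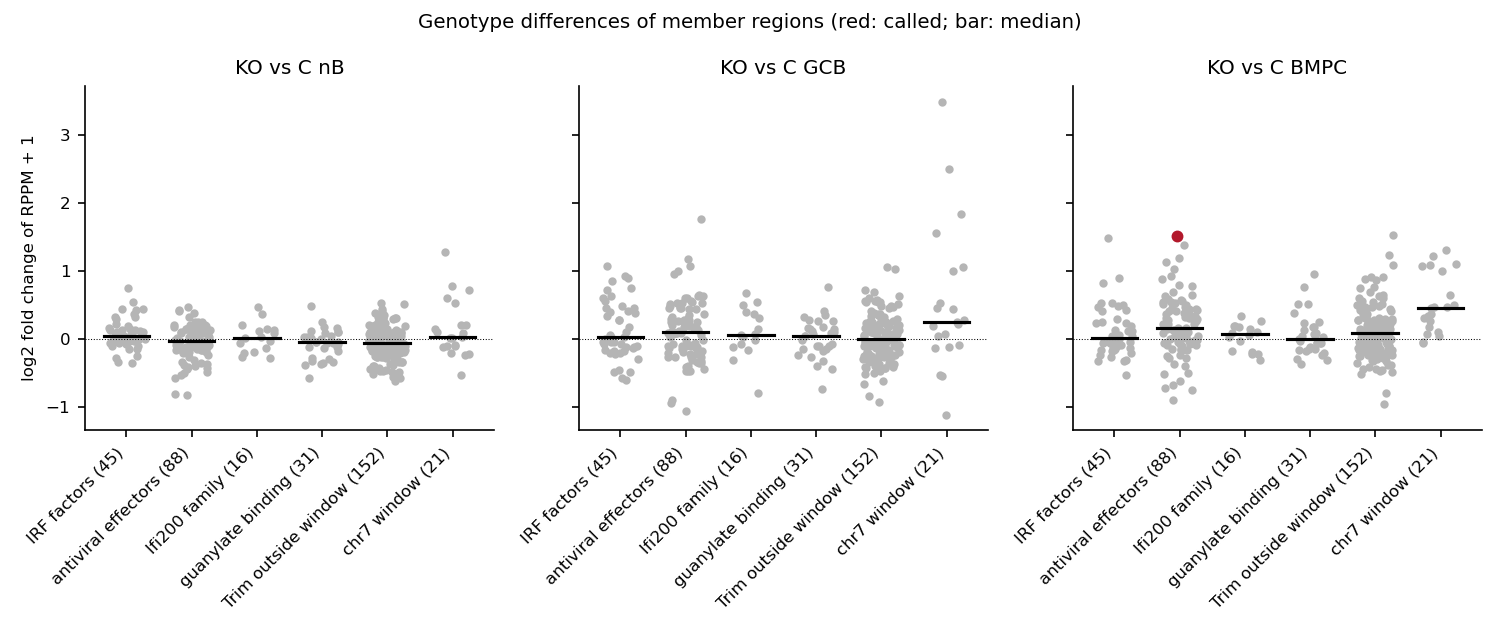
Log2 fold change of RPPM + 1 of KO against C (vertical axis) for each member region in nB, GCB and BMPC, by gene group; red marks the called region and black bars are medians. The called point is the Oasl1 region at 1.51 in BMPC, and the points above 1.5 in GCB are, apart from 1, regions of the chromosome 7 cluster.

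The called region lies between Oasl2 and Oasl1 (chr5:115366675-115367212, at -6036 bp from the Oasl1 start, in no annotated gene). Oasl1 encodes a relative of the Oas enzymes that in mice limits translation of Irf7. The region held 20.2, 20.5 and 22.9 RPPM in C nB and 18.9 and 20.5 in KO nB, then 7.92 and 7.49 in C GCB and 5.51, 7.64, 9.21 and 6.29 in KO GCB. In BMPC it held 2.86, 2.55 and 3.58 RPPM in C, from 22, 14 and 23 reads, and 10.1 and 10.6 in KO, from 83 and 57 reads. It thus fell at each step in C, while both KO BMPC libraries lay above every GCB library. The log2 difference between KO and C was 1.51 ± 0.23 in BMPC (limma adjusted p = 0.0020), -0.10 ± 0.23 in nB and -0.11 ± 0.22 in GCB. The interaction of genotype with cell type did not pass over all regions, at 1.63 ± 0.32 for BMPC against GCB (limma adjusted p = 0.082) and 1.62 ± 0.33 for BMPC against nB (limma adjusted p = 0.21). The limma call was lost without C BMPC replicate 2 (adjusted p = 0.017), without KO BMPC replicate 1 (0.045) or replicate 2 (0.11), while both edgeR tests and DESeq2 called the region with all libraries. Its central 240 bases are shown because it is the single member called between genotypes, and they hold no ISRE or GAS core.
Oasl1 upstream region (chr5:115366823-115367062, + strand): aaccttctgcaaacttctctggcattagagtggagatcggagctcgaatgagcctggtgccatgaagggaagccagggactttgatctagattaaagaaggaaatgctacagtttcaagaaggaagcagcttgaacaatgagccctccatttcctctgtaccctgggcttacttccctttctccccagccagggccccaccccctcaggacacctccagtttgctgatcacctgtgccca
The neighboring Oasl2 promoter held 17.7, 21.7 and 14.9 RPPM in C BMPC and 15.9 and 20.2 in KO BMPC, which overlap. No region covered the Oasl1 start, and the nearest, 1593 bp inside the gene, held 0.73 to 1.7 RPPM in BMPC.

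The edgeR likelihood ratio test called more members in BMPC, 7 higher and 1 lower of 332, with 2.01% higher and 0.526% lower among all regions. The 7 comprised both the called region and another upstream of Oasl1, and 1 region each near Irf1, Ifit3, Ifitm1, Trim7 and Trim67, and the lower one lay at Trim16; these were named after their values were seen. The region upstream of Irf1 (-9760 bp) held 3.25, 2.74 and 2.02 RPPM in C BMPC and 10.8 and 7.65 in KO BMPC. The Trim7 region held 1.43, 1.82 and 1.56 in C BMPC and 4.98 and 8.4 in KO BMPC. By limma their log2 differences were 1.48 ± 0.42 and 1.53 ± 0.33 (adjusted p = 0.096 and 0.023), and neither was called. In GCB the largest difference outside the chromosome 7 cluster was at the small Ifitm5 region, with 4.41, 5.73, 2.63 and 2.8 RPPM in KO against 0 and 0.937 in C (log2 difference 1.77 ± 0.36, limma adjusted p = 0.038). The Oas1a promoter had the largest difference among listed promoters there, but its KO libraries held 12.1, 7.64, 9.65 and 1.4 RPPM, on both sides of the C values of 2.2 and 2.34.

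The Trim cluster of chromosome 7 holds relatives of human TRIM5, a retrovirus restriction factor, and arose by gene duplication. Its 21 member regions belong to Trim6, Trim34a, Trim12a, Trim12c, Trim30b, Trim30a and Trim30d. The copies are alike in sequence: the Trim12a and Trim12c promoter regions aligned over 1035 bases at 90.1% identity, and those of Trim30a and Trim30d over 886 bases at 92.8%. In the 40 bases printed around the ISRE core, Trim12a and Trim12c differ at 2 bases, and Trim30a and Trim30d are identical. Reads from identical stretches cannot be placed on 1 copy, which limits the values given here.

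Accessibility at Trim12a differed between libraries of the same group. Its promoter (chr7:111463205-111464519) held 52.1 and 47.7 RPPM in C nB replicates 1 and 2 and 3.16 in replicate 3. In C BMPC it held 53.6 and 51.1 in replicates 1 and 2 and 3.43 in replicate 3, and in C GCB 4.4 in F2 and 4.22 in M1. The KO libraries held 48.9 and 55.7 in nB, 46.3, 94.8, 41.6 and 63.6 in GCB (F1, F2, F3 and M1) and 49.8 and 47.4 in BMPC. All low libraries were thus C libraries, and 4 of the 8 C libraries were as high as KO libraries.

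The Trim30d promoter (chr7:111655945-111656858) was low in the same 4 libraries, with 1.86 RPPM in C nB replicate 3, 3.52 and 1.87 in C GCB and 1.56 in C BMPC replicate 3. C nB replicates 1 and 2 held 17.8 and 21.5, C BMPC replicates 1 and 2 16 and 14.4, and the KO libraries 14.1 and 19.3 in nB, 24.2, 29.3, 9.65 and 20.3 in GCB and 18 and 17 in BMPC. In the Trim30d intron, 5414 bp from the start, the 4 libraries had no read, and the other 12 held 0.877 to 7.17 RPPM. These 4 libraries lay below the other 12 at 4 of the 21 members. These members were the Trim12a promoter, the Trim30d promoter and intron, and a weak Trim6 region. Regions that are no members were counted over a wider window, with regions from chr7:110910726 to chr7:111656858. This window also holds regions assigned to olfactory receptor and globin (Hbb) genes. The 4 libraries lay below the other 12 at 6 of its 14 regions that are no members. Among all 66177 regions this held for 16, of which 10 lie in the wider window, 1 elsewhere on chromosome 7 and 5 on other chromosomes. It held for 0 of the 332 other members. The region near the olfactory receptor gene Olfr630 (chr7:110910726-110911857) lies in the wider window but outside the span of the Trim members. It had no read in the 4 libraries and 5.84 to 66.8 RPPM in the others. A value of 0 says that no read was placed in the region and need not mean closed chromatin.

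Other promoters of the cluster did not share the pattern. The Trim12c promoter held 57.9 to 90.3 RPPM over the 16 libraries, the Trim30a promoter 30.8 to 57.9 and the Trim34a promoter 25.5 to 36.3. The low members are therefore interspersed with even ones, although the Trim12a and Trim12c promoters are close copies. The low regions that are no members, apart from that near Olfr630, form a run before the Trim12a promoter, from chr7:111436181 to chr7:111448957. No even region lies in this run. The next region (chr7:111451444-111452035) held 0.186 RPPM in C nB replicate 3 and 0 in the other low libraries, but also 0 in KO GCB F3.

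**Figure D5:**
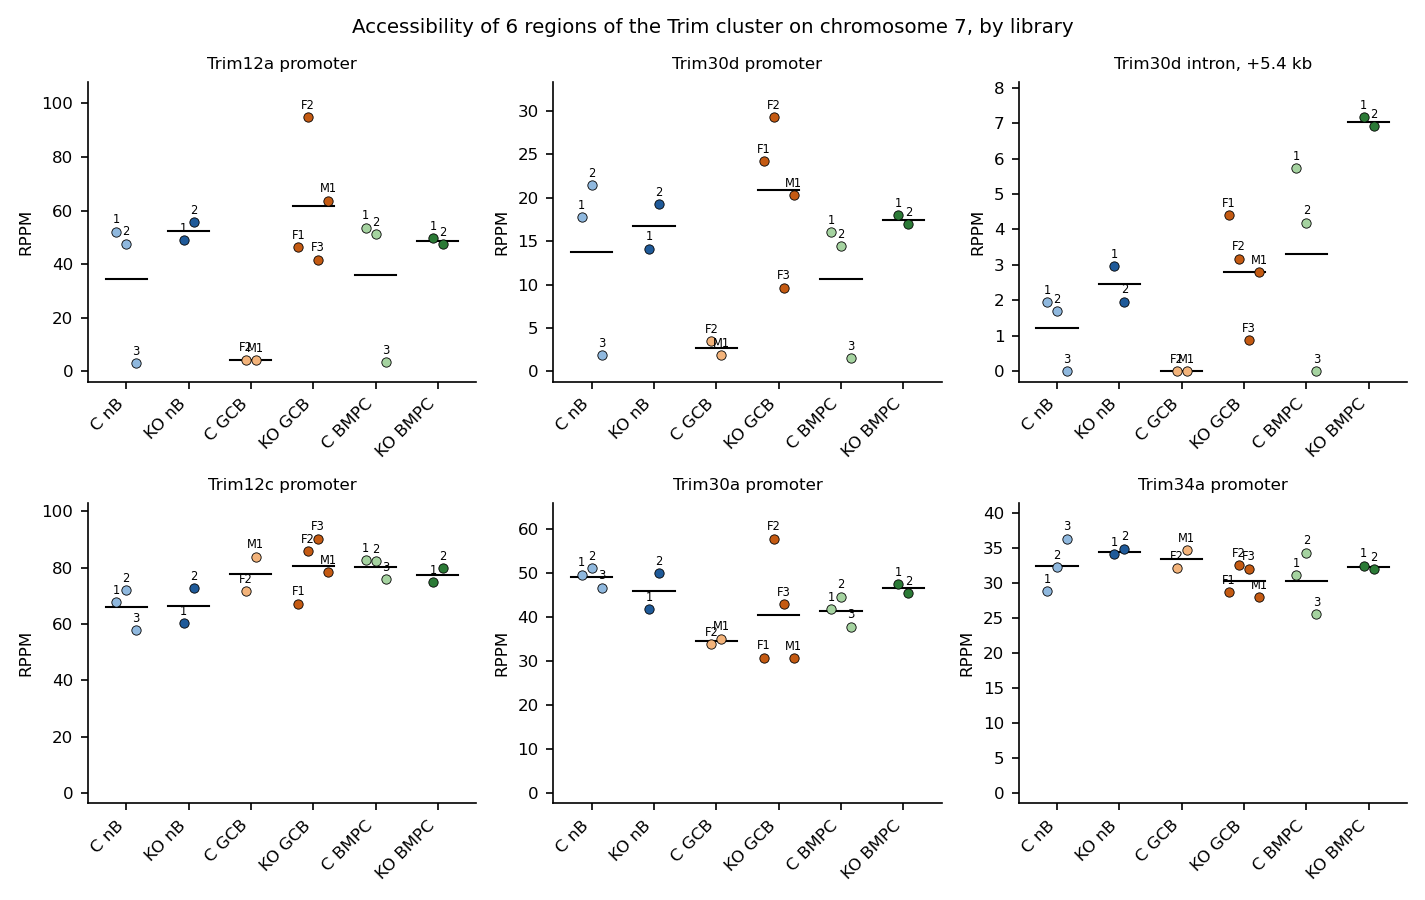
RPPM (vertical axis) of 6 regions of the Trim cluster in each library, labelled by its replicate or pool, with the group mean as a bar. In the upper row the points of C nB 3, C GCB F2, C GCB M1 and C BMPC 3 lie below all others, and in the lower row (Trim12c, Trim30a and Trim34a promoters) the groups overlap.

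Since both C GCB libraries are low, genotype and library cannot be told apart in GCB. The log2 difference between KO and C GCB was 3.49 ± 0.72 at Trim12a (limma adjusted p = 0.038) and 2.50 ± 0.60 at the Trim30d promoter (adjusted p = 0.070), and neither was called. With the spread taken from the GCB libraries alone both were called (limma adjusted p = 5.0e-12 and 0.00013), as they were by the edgeR likelihood ratio test, which called 0.0166% of all regions higher in KO GCB. Limma called 0 of the 21 members in nB, GCB, BMPC and the mean, with 0, 7, 4 and 6 at an unadjusted p under 0.05. The likelihood ratio test called 0, 2, 1 and 3, the quasi-likelihood test 0, 0, 0 and 1, and DESeq2 0 in each. In nB and BMPC, where 1 of 3 C libraries was low, the difference at Trim12a was 1.27 ± 0.76 and 1.09 ± 0.76. Only KO mice carry Cre, so alleles inherited with Cre and loss of Dnmt3 cannot be told apart here.

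At least 1 comparison of cell types in C was called at 8 of the 21 regions of the cluster (38.1%), against 51.8% of all regions. The clearest was upstream of Trim34a (chr7:111389242-111389774), with 33.4, 29.6 and 25.9 RPPM in C nB, 12.3 and 9.84 in C GCB and 5.85, 3.65 and 2.65 in C BMPC. The KO libraries held 34.4 and 30.7, 15.4, 10.2, 16.2 and 11.9 and 4.86 and 6.53 in the same order, and no cell type overlapped another. Its log2 fold change in C was -1.34 ± 0.25 in GCB and -2.64 ± 0.22 in BMPC (limma adjusted p = 7.9e-05 and 6.3e-11). An intergenic region assigned to Trim30b fell from 20.5, 15.3 and 18.6 RPPM in C nB to 5.72 and 2.34 in C GCB and 2.73, 1.09 and 0.623 in C BMPC. In a Trim30a intron, 7879 bp from the start, accessibility rose from 3.41, 2.07 and 1.67 RPPM in C nB to 8.32, 10.2 and 12.1 in C BMPC, the single rise of the cluster among the calls against nB.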

How the data were processed

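Reads were trimmed, aligned to mm9 with Bowtie and turned into peaks with MACS2 in each sample by the authors, who merged them into 1 set of regions; the deposited values are RPM, the reads of a region per 1000000 reads in all regions of that library (here RPPM). The submitters' processing notes name Bowtie 1.1.1, Picard 1.127, MACS2 2.1.0.20140616 and edgeR 3.12.1. The deposited table also holds fold changes and p-values of 9 comparisons by the authors, which were not used. A 17th sample, a KO BMPC library that the labels describe as removed by the authors, was not analysed here. All values came out as whole reads (100%, within 0.01 reads) once divided by the value of 1 read, and these recovered reads were used for count tests.

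RPPM were tested as log2(RPPM + 1) with limma 3.58.1 (R 4.3.3), fitting 6 group means over 16 libraries with a mean-variance trend and Benjamini-Hochberg adjustment over 66177 regions. Calls needed an adjusted p no higher than 0.01 and a 2 fold change. Tests with edgeR 4.0.16 and DESeq2 1.42.0, other pseudocounts (0.1 and 5 RPPM), scalings, a filter at 1 RPPM and fits without single libraries were alternatives. The limma steps were also run on simulated reads with 200 regions changed between genotypes by 2 on the log2 scale, up or down. The changed regions had a mean of at least 2 RPPM, and the dispersion was a set value, not estimated from these libraries. Of the 200 changed regions, 43% were called in nB, 55.5% in GCB and 45.5% in BMPC. These shares do not measure how often changes near the 2 fold limit are called. The labels name separate animals or pools as replicates. Members, gene lists and named regions were chosen with earlier results of these data known. Named were the regions of the chromosome 7 cluster, those called between genotypes, in each cell type comparison in C the 6 called members outside the cluster with the largest rise and the 6 with the largest fall, and the region nearest the start of 34 listed genes. Regions at Irf1 (-5717 bp), Ifitm3 (10908 bp), Gbp2 (-1292 bp) and Gbp8 (-8420 bp) were named after their values were seen. Sequences were read from mm9, where 284 regions on unplaced sequence were left out of motif counts. The floor of 3 reads covers counting error only, while SDs give the spread between the libraries of a group. SEs are those of limma for a difference of group means. They use 1 spread per region, pooled over the 6 groups and moderated across regions. Values at a few marker genes are not reported here.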

Additional observations from a re-analysis of the deposited data

Results flagged for a closer look

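In 6 of 82 regions 1 of the 4 KO GCB libraries stood apart from the other 3 by Dixon's criterion. Chance meets it in about 1 in 20 groups of continuous values, a rate that does not hold for counts of a few reads. At the Irf1 promoter, F1 held 45.2 RPPM (41 reads) and the others 33.8 to 35. In a region upstream of Trim59 (-17849 bp), M1 held 16.8 RPPM (24 reads) and the others 10.8 to 11.8. In a region 5694 bp from Ifitm3, F2 held 3.82 RPPM (6 reads) and the others 0.699 to 1.10. The remaining 3 lay at Trim6. At its promoter F2 held 1.91 RPPM (3 reads) and the others 0. In the region 195 bp from its start F3 held 0.877 RPPM (2 reads) and the others 0. A region with reads in only 1 of the 4 libraries always meets the criterion, as at these 2 Trim6 regions. In the region 12395 bp from its start F3 held 6.14 RPPM (14 reads) and the others 9.79 to 10.2. The cause was not tested.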

How the results depend on the processing

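Of the 37 called changes with the largest size in each comparison of cell types or called between genotypes, all outside the chromosome 7 cluster, 482 values under the alternatives kept their direction and side of the threshold, 11 lost their call and 0 reversed. Outside the chromosome 7 cluster, a pseudocount of 5 RPPM gave 28 calls for C GCB against nB (55 in the report), 67 for C BMPC against nB (125) and 48 for C BMPC against C GCB (92), as it shrinks fold changes of low regions. Leaving out 1 library gave 43 to 62, 113 to 128 and 79 to 102. For KO against C BMPC the single call became 0 with a pseudocount of 5 RPPM, with quantile normalization and without C nB 3 and C BMPC 3 (chosen after seeing the data), 2 at an adjusted p of 0.05, in a fit of the compared groups only and with DESeq2, 6 with the edgeR quasi-likelihood test and 8 with its likelihood ratio test, and 0 to 1 without single libraries (0 without C BMPC 2, KO BMPC 1 or KO BMPC 2). For KO against C GCB an adjusted p of 0.05 gave 1 call outside the cluster.

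In the cluster, KO against C GCB gave 1 call at an adjusted p of 0.05, 2 with the compared groups only, with a sex term, with the likelihood ratio test and without C nB 3 and C BMPC 3, and 0 to 1 without single libraries (1 without C nB 3 or C BMPC 3). Taking the pool name as a replicate block also gave 2; the pool names F2 and M1 do not pair the samples in the labels, and their deviations correlated at 0.060 and 0.092. In BMPC the likelihood ratio test gave 1, and in the mean of the 3 cell types it gave 3, the quasi-likelihood test 1 and the fit without C nB 3 and C BMPC 3 gave 1. The cause was not tested. An ISRE core was in 18.7% of members when whole regions were searched. GCB libraries had the fewest reads, and groups of 2 to 4 libraries limit every test.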
